A study of Mus musculus with 6 samples.

Results

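Aminoacyl-tRNA synthetases are the enzymes that join each amino acid to its transfer RNA, and their transcripts were followed here in mouse neural stem cells given the microRNA miR-128. The members were 36 genes chosen by name, 20 that encode cytosolic enzymes and 16 that encode mitochondrial ones (symbols ending in 2), of 20263 genes named in the table. All 36 had a row. Each gene was represented by its transcript row of highest mean over all arrays, and no filter on low values was used. Gars and Kars, which supply both compartments, are counted as cytosolic.

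A mimic of miR-128 was put into neural stem cells by nucleofection, an electrical transfection method, and control cells received an RNA called miR-Control in the same way. All cells came from CD-1 albino mouse embryos at stage E14.5, were grown as neurospheres under proliferation conditions, and normally lack miR-128, as the study describes them. RNA was collected 72 h after nucleofection. The groups had 3 biological replicates each, and every replicate had an exon array of its own, 6 arrays in all. Values are log2 levels, in which a difference of 1 is a doubling, and probe groups differ in how brightly they hybridise, so levels are not compared between genes.

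Charging of transfer RNA is needed for every round of translation. The cytosol and the mitochondrion carry mostly separate sets of synthetases, all of them encoded in the nucleus and made in the cytosol. Several cytosolic enzymes are held in a large particle, the multisynthetase complex, by scaffold proteins. When amino acids run short, the transcription factor ATF4 raises many genes of the cytosolic set. MicroRNAs repress transcripts mainly by pairing of their seed, bases 2 to 8, with sites in the transcript. Such sites were not examined in the synthetase transcripts.

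The sequence of the introduced microRNA, from RefSeq (GRCm38.p6, chr1:128202404-128202424, plus strand), is shown because the whole comparison rests on it, with the seed in capitals.
miR-128-3p: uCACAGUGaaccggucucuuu

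Promoters are shown next because a short element known from ATF4 targets was found among the cytosolic genes. RefSeq promoter windows (GRCm38.p6, 250 bases before to 50 after a gene's start) had an entry for 27 of the 36 members, and were searched on both strands for TGATGNAA, a short form of the element that ATF4 binds together with C/EBP partners. The letters occurred in 5 of 13 cytosolic genes with an entry, namely Aars, Gars, Iars, Tars and Yars, and in 0 of 14 mitochondrial genes. Over all promoters in the table they occurred in 4.51% of 27025 genes. All 5 matching genes belong to the 12 cytosolic synthetases listed as ATF4-induced from reports elsewhere, of which 8 had an entry. Of the other cytosolic genes 5 had an entry and 0 had a match. A match describes letters in this window and no binding was measured.

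The matched stretches of Yars, Gars and Iars are printed 5′ to 3′ on the strand of the gene, with the matching letters in capitals. Counted from the gene's start, the letters stand after it in Yars (bases 4 to 11) and Iars (8 to 15). They stand before it in Gars (-30 to -23) and in Tars (-15 to -8), whose window follows. In Yars the match reads along the gene's strand and in the other 4 genes it lies on the opposite strand.
Yars (chr4:129189895-129189924, plus strand): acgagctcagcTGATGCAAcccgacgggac
Gars (chr6:55037960-55037989, plus strand): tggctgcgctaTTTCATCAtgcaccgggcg
Iars (chr13:49682126-49682155, plus strand): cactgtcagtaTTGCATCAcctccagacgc

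The whole 300-base window of Tars is given because Tars had the smallest p of the 36 members (chr15:11399609-11399908, minus strand).
Tars: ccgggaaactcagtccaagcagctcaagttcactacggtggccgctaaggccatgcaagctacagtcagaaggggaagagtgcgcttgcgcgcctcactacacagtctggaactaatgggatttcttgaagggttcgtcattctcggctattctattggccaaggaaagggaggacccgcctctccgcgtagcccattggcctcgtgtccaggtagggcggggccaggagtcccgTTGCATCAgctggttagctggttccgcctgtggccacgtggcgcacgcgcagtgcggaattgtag

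Before the results, 1 array needs a remark. On the first principal component, with 35.4% of the variance, miR-Control replicate 3 scored 42.5 while all other arrays scored between -18.7 and -0.226. Its interquartile range of 2.87 was the smallest, against 2.98 to 3.22 elsewhere. The 9 neural stem and radial glia markers had log2 levels from 5.78 (Prom1) to 13.56 (Vim) with miR-128 and from 5.85 to 13.57 in controls. The table holds no detection call, so these levels do not show which markers were present. In bulk RNA fewer cells of a type and less RNA per cell cannot be told apart.

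Most synthetase transcripts had slightly lower levels in miR-128 cells, and none passed the test. Of the 20 cytosolic genes 17 were lower and 3 higher, and of the 16 mitochondrial genes 14 were lower and 2 higher. Over all 32025 rows 43.2% were lower, and among the 16012 rows above the median level 47.9% were. The median log2 fold change, miR-128 over miR-Control, was -0.08 for the cytosolic genes and -0.13 for the mitochondrial genes, beside 0.02 for all rows. These are descriptions of lists chosen with earlier results known, and carry no test.

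Markers of other cell types moved in part with the groups, and 0 of them passed in limma. Of 6 oligodendrocyte lineage markers 5 were higher with miR-128, with a median log2 fold change of 0.24. At an unadjusted p under 0.05 in limma 3 of these 6 were higher, against 4.04% of all rows. Groups did not overlap in 2 of the 6, both higher, against 6.98% of all rows. Relative to the miR-Control mean the median of these 6 was 0.28, 0.08 and 0.28 in miR-128 replicates 1 to 3, against 0.05, -0.09 and -0.01 in miR-Control replicates 1 to 3. All 4 astrocyte markers were higher, with a median of 0.15, groups apart in 1 (S100b) and 1 at an unadjusted p under 0.05. All 4 microglial markers were also higher, with a median of 0.05 and overlapping groups. The neuronal markers were divided 3 and 3, with groups apart in 1 that was higher, and the vascular ones 2 and 2. Of the 9 neural stem markers 5 were lower, with a median of -0.01. In 1 of these 9, lower with miR-128, the groups were apart, against 4.87% of all rows. Likewise 1 was lower at an unadjusted p under 0.05 in limma, against 3.11% of all rows. The part of these markers in the synthetase values was not tested.

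In limma, 0 of the 36 members and 0% of all rows had an adjusted p under 0.05, with Benjamini-Hochberg adjustment over all 32025 rows. The smallest adjusted p among the members was 0.393. At an unadjusted p under 0.05 there were 3 members, Tars, Farsa and Mars2, all lower, where 3.11% of all rows were lower at that threshold and 4.04% higher. Groups did not overlap in 3 members, Tars, Mars2 and Aars2, again all lower, against 4.87% of all rows lower and 6.98% higher. All 36 members lay above the median level, and of the rows there 4.78% were lower at that p and 7.34% were lower with no overlap. Counts of 3 in 36 lie a little above those shares and are read as no more than that.

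Each interval shows how precisely the change of 1 member was estimated, and holds for that member alone. The 95% intervals of all 36 members lay between -0.69 and 0.50 on the log2 scale, which is a range of 1.61-fold lower to 1.41-fold higher. For 25 members the whole interval lay within 0.5 of 0.

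**Figure D1:**
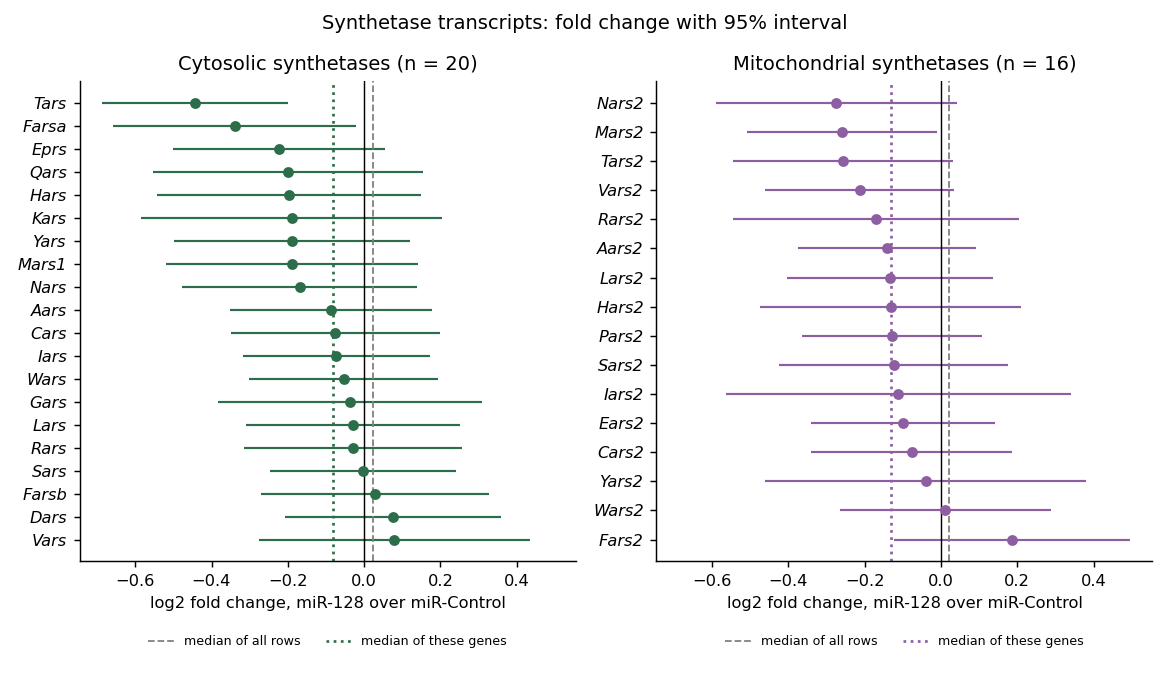
Log2 fold change, miR-128 over miR-Control (x axis), of each cytosolic (left, n = 20) and mitochondrial (right, n = 16) synthetase gene, with points for limma estimates, bars for 95% intervals, a dotted line at the median of the genes shown and a dashed line at the median of all rows (0.02). Points left of 0 number 17 of 20 and 14 of 16, and only the intervals of Tars, Farsa and Mars2 leave out 0.

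Among the cytosolic enzymes, the clearest difference was in Tars, threonyl-tRNA synthetase. Tars had log2 levels of 10.03, 10.14 and 10.12 in miR-128 replicates 1 to 3, against 10.65, 10.57 and 10.41 in miR-Control replicates 1 to 3. No miR-128 array reached the lowest control, and the gap was wider than the range within either group. The log2 fold change was -0.44 (SE 0.11, adjusted p = 0.393 in limma), a 1.36-fold lower level, and it lay between -0.52 and -0.39 in every alternative tried, with adjusted p from 0.0677 to 1.00.

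Phenylalanyl-tRNA synthetase is built from paired α and β subunits, encoded by Farsa and Farsb. Farsa had 9.37, 9.78 and 9.58 in miR-128 cells, against 10.02, 10.01 and 9.71 in miR-Control cells. Here miR-128 replicate 2 lay above miR-Control replicate 3, so the groups overlapped, and the log2 fold change was -0.34 (SE 0.14, adjusted p = 0.673 in limma). Farsb had 11.67, 11.73 and 11.54 in miR-128 cells and 11.67, 11.81 and 11.38 in miR-Control cells. Its groups overlapped fully, with a log2 fold change of 0.03 (95% interval -0.27 to 0.33), so the estimates of the subunits differed in sign. Leaving out 1 array gave Farsb from -0.09 (without miR-Control replicate 3) to 0.12 (without miR-Control replicate 2). The difference between the subunits was not tested.

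Eprs encodes a fused enzyme that charges both glutamyl and prolyl transfer RNA, and it had 11.44, 11.68 and 11.69 in miR-128 cells, against 11.95, 11.87 and 11.67 in miR-Control cells. The controls of replicates 1 and 2 lay above every miR-128 array, and replicate 3 did not. The log2 fold change was -0.22 (SE 0.12, adjusted p = 0.784 in limma), and -0.14 without miR-128 replicate 1.

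Yars, tyrosyl-tRNA synthetase, had 10.89, 11.28 and 11.07 in miR-128 cells and 11.37, 11.36 and 11.08 in miR-Control cells. Mars1, methionyl-tRNA synthetase, which also charges the initiator transfer RNA, had 10.83, 11.11 and 11.20 in miR-128 cells and 11.41, 11.29 and 11.01 in miR-Control cells. Hars, histidyl-tRNA synthetase, had 9.61, 9.78 and 9.70 in miR-128 cells and 9.97, 10.14 and 9.57 in miR-Control cells. In these 3 genes miR-Control replicate 3 again fell among the miR-128 arrays or under them. Their log2 fold changes were -0.19 for Yars (SE 0.14), -0.19 for Mars1 (SE 0.14) and -0.20 for Hars (SE 0.15). Single arrays moved each of them. Leaving out miR-128 replicate 1 put Yars at -0.09, while leaving out miR-128 replicate 2 put it at -0.29. Mars1 was at -0.08 without miR-128 replicate 1, -0.10 without miR-Control replicate 1 and -0.30 without miR-Control replicate 3. Hars was at -0.07 without miR-Control replicate 2 and -0.36 without miR-Control replicate 3.

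Nars, Aars and Vars, which charge asparagine, alanine and valine, are described as the cytosolic partners of mitochondrial genes given below. Nars had 11.89, 12.17 and 11.94 in miR-128 cells, against 12.26, 12.31 and 11.93 in miR-Control cells. Aars had 11.38, 11.52 and 11.52 in miR-128 cells and 11.65, 11.65 and 11.38 in miR-Control cells. Vars had 9.71, 9.34 and 9.83 in miR-128 cells and 9.77, 9.40 and 9.47 in miR-Control cells. Groups overlapped in all 3, and the log2 fold changes were -0.17 for Nars, -0.09 for Aars and 0.08 for Vars. Leaving out 1 array gave -0.29 (without miR-Control replicate 3) to -0.10 (without miR-Control replicate 2) for Nars. For Aars it gave -0.18 (without miR-Control replicate 3) to -0.04 (without miR-128 replicate 1, or miR-Control replicate 1 or 2). For Vars it gave -0.02 (without miR-128 replicate 3) to 0.22 (without miR-128 replicate 2).

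The other 10 cytosolic genes, Cars, Dars, Gars, Iars, Kars, Lars, Qars, Rars, Sars and Wars, had log2 fold changes between -0.20 and 0.08 and adjusted p between 0.906 and 0.999 in limma. Groups overlapped in all 10. Qars, glutaminyl-tRNA synthetase, was lowest in this set at -0.20 (95% interval -0.55 to 0.15), and Dars, aspartyl-tRNA synthetase, was highest at 0.08 (95% interval -0.21 to 0.36). Sars, seryl-tRNA synthetase, stood at -0.00270 with an interval of -0.25 to 0.24.

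Among the mitochondrial enzymes, Mars2, mitochondrial methionyl-tRNA synthetase, was the 1 gene whose row of highest mean had an unadjusted p under 0.05. Mars2 had 8.97, 8.92 and 8.84 in miR-128 cells, against 9.03, 9.20 and 9.29 in miR-Control cells. The groups did not overlap, with a gap narrower than the spread within the controls. The log2 fold change was -0.26 (SE 0.11, adjusted p = 0.678 in limma). In this gene miR-Control replicate 3 was the highest array, and without it the value was -0.20.

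Tars2, mitochondrial threonyl-tRNA synthetase, had 8.93, 9.12 and 9.16 in miR-128 cells, against 9.42, 9.45 and 9.11 in miR-Control cells. The miR-128 arrays of replicates 2 and 3 lay just above miR-Control replicate 3, and the log2 fold change was -0.26 (SE 0.13, adjusted p = 0.743 in limma). The table held 4 distinct Tars2 rows, with log2 fold changes from -0.34 to -0.26. In 2 of them, not the row of highest mean, the groups did not overlap, and 1 of these, at -0.34, had an unadjusted p of 0.0155 (adjusted p = 0.579 in limma).

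Nars2, which charges asparagine, had 9.31, 9.45 and 9.24 in miR-128 cells and 9.53, 9.88 and 9.42 in miR-Control cells. Vars2, which charges valine, had 8.47, 8.43 and 8.57 in miR-128 cells and 8.77, 8.56 and 8.78 in miR-Control cells. In each of them 1 miR-128 array reached above the lowest control. Their log2 fold changes were -0.27 (SE 0.14) for Nars2 and -0.21 (SE 0.11) for Vars2. Without miR-Control replicate 2 Nars2 was at -0.14.

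Aars2, the mitochondrial alanyl enzyme, had 8.33, 8.51 and 8.53 in miR-128 cells and 8.58, 8.61 and 8.61 in miR-Control cells. Its groups did not overlap, and the controls differed among themselves by far less than the miR-128 arrays did. The log2 fold change was -0.14 (SE 0.10, adjusted p = 0.887 in limma), and -0.08 without miR-128 replicate 1. Fars2, the single-subunit mitochondrial phenylalanyl enzyme, ran the other way, with 8.88, 9.23 and 9.15 in miR-128 cells and 8.72, 9.07 and 8.91 in miR-Control cells. Groups overlapped, and its log2 fold change of 0.19 (SE 0.14, adjusted p = 0.887 in limma) was the highest of the 36. Leaving out 1 array gave 0.10 (without miR-Control replicate 1) to 0.29 (without miR-128 replicate 1).

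**Figure D2:**
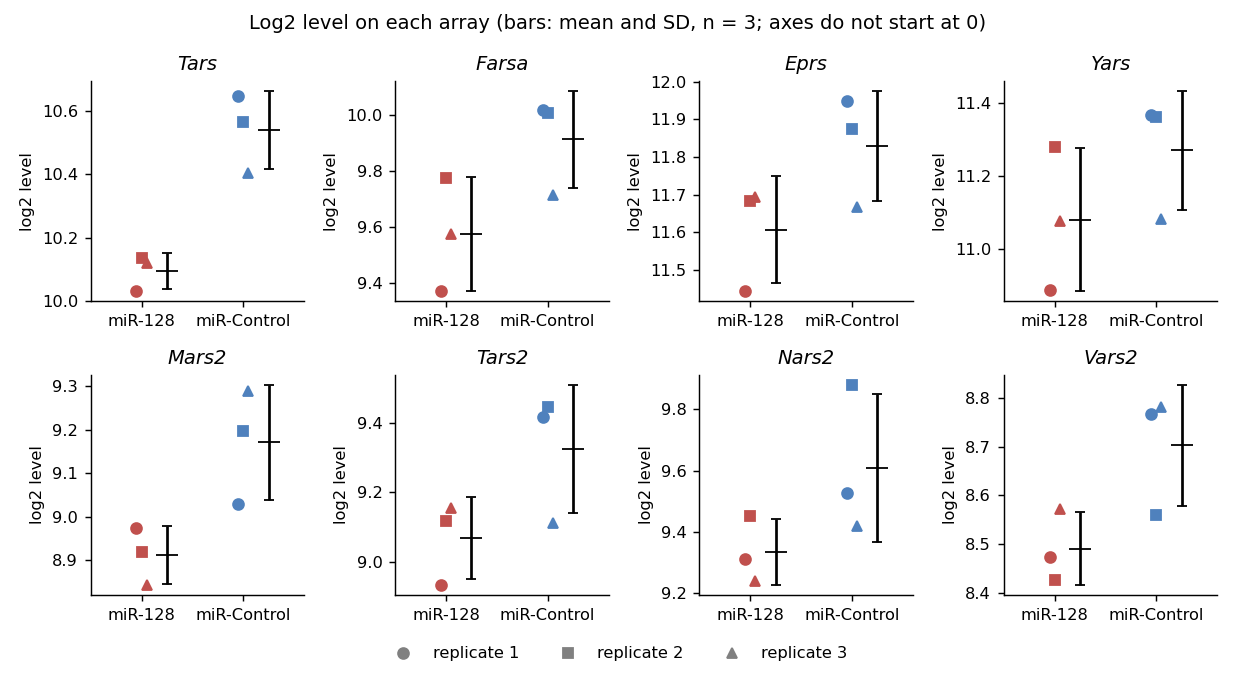
Log2 level (y axes, each with its own range that does not start at 0) of 4 cytosolic genes in the upper row and 4 mitochondrial genes in the lower row, for miR-128 (left, red) and miR-Control (right, blue) arrays, with mean and SD beside the points (n = 3). Groups are apart in Tars and Mars2, and in Tars, Farsa, Eprs, Yars, Tars2 and Nars2 the triangle of miR-Control replicate 3 is the lowest control.

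Ears2, Pars2, Hars2 and Yars2 are the mitochondrial partners of cytosolic genes above. Ears2, the glutamyl enzyme, had 7.91, 8.01 and 8.09 in miR-128 cells and 8.20, 8.01 and 8.10 in miR-Control cells. Pars2, the prolyl enzyme, had 7.80, 7.75 and 7.66 in miR-128 cells and 7.87, 7.96 and 7.77 in miR-Control cells. Groups overlapped in both, with log2 fold changes of -0.10 for Ears2 and -0.13 for Pars2. Ears2 was at -0.05 without miR-128 replicate 1 or miR-Control replicate 1, and Pars2 at -0.08 without miR-Control replicate 2.

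Hars2, the histidyl enzyme, had 8.53, 8.78 and 8.60 in miR-128 cells and 8.69, 9.08 and 8.55 in miR-Control cells. Yars2, the tyrosyl enzyme, had 8.67, 8.59 and 8.89 in miR-128 cells and 9.02, 8.92 and 8.32 in miR-Control cells. Their log2 fold changes were -0.13 for Hars2 and -0.04 for Yars2, and the sign of each turned without miR-Control replicate 2, to 0.02 and 0.04. Yars2 was also above 0 without miR-128 replicate 2 (0.02) or miR-Control replicate 1 (0.09). Without miR-Control replicate 3 the values were -0.24 for Hars2 and -0.26 for Yars2. The remaining 6 mitochondrial genes, Cars2, Iars2, Lars2, Rars2, Sars2 and Wars2, had log2 fold changes between -0.17 and 0.01 and adjusted p between 0.928 and 0.997 in limma, with overlapping groups in all 6.

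Set side by side, 17 combinations of a cytosolic and a mitochondrial gene for the same amino acid could be formed from the members. Eprs enters with both Ears2 and Pars2, and Fars2 with both Farsa and Farsb, while Dars, Gars, Kars and Qars had no partner among the members. Both genes were lower in 13 combinations and both were higher in 1 (Farsb and Fars2). The signs differed in 3, namely Farsa with Fars2, Vars with Vars2 and Wars with Wars2. As 17 of 20 cytosolic and 14 of 16 mitochondrial genes were lower, most combinations would have both lower whatever the amino acid. The mitochondrial gene had the lower log2 fold change in 9 of the 17. The threonyl pair had -0.44 for Tars and -0.26 for Tars2. The widest differences, cytosolic minus mitochondrial, were -0.53 for Farsa and Fars2 and 0.29 for Vars and Vars2. These differences were not tested.

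**Figure D3:**
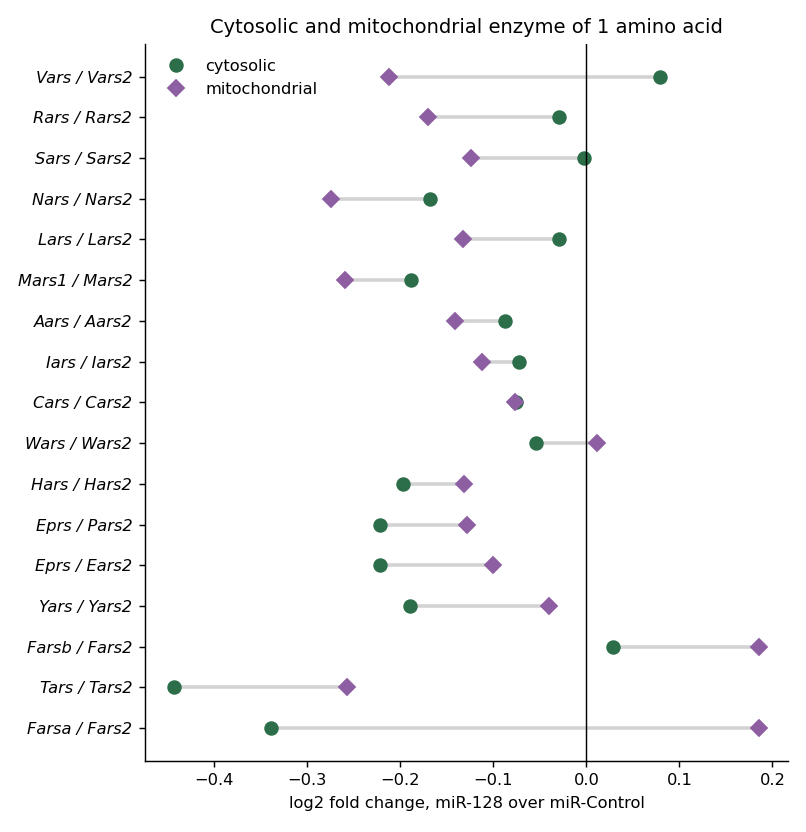
Log2 fold change, miR-128 over miR-Control (x axis), of the cytosolic (circles) and mitochondrial (diamonds) gene for the same amino acid, joined by a line in each of 17 combinations, ordered by their difference. In 13 combinations both symbols lie left of 0, and Farsa with Fars2 has the longest line at -0.53.

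The arrays show how far the small shift of both sets rested on single replicates. Relative to the miR-Control mean of each gene, the median over the 20 cytosolic genes was -0.20, -0.03 and -0.08 in miR-128 replicates 1 to 3, against 0.09, 0.11 and -0.19 in miR-Control replicates 1 to 3. The median over the 16 mitochondrial genes was -0.21, -0.14 and -0.10 in miR-128 cells, against 0.00275, 0.11 and -0.11 in miR-Control cells. In both sets miR-Control replicate 3 was as low as the miR-128 arrays, and the groups overlapped. The median over all rows lay between -0.00191 and 0.04 with miR-128 and between -0.02 and 0.03 in controls.

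The miR-Control replicate 3 array was the lowest control in 17 of 20 cytosolic and 9 of 16 mitochondrial genes, beside 53.5% of the rows above the median level and 34.0% of all rows. Without it the median log2 fold change was -0.18 for cytosolic and -0.19 for mitochondrial genes, with 19 of 20 and 15 of 16 lower, where 39% of all rows were lower. Groups then did not overlap, lower with miR-128, in 11 of 20 cytosolic and 7 of 16 mitochondrial genes, against 12.1% of all rows and 20.2% of those above the median level. Even so 0 members passed in limma, as did 0% of all rows. Leaving out miR-Control replicate 2 gave medians of -0.04 and -0.08 with 14 of 20 and 12 of 16 lower, where 47.5% of all rows were lower. Medians without miR-128 replicate 1 were -0.05 and -0.08. The part of the single arrays in the shift was not tested beyond these values.

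**Figure D4:**
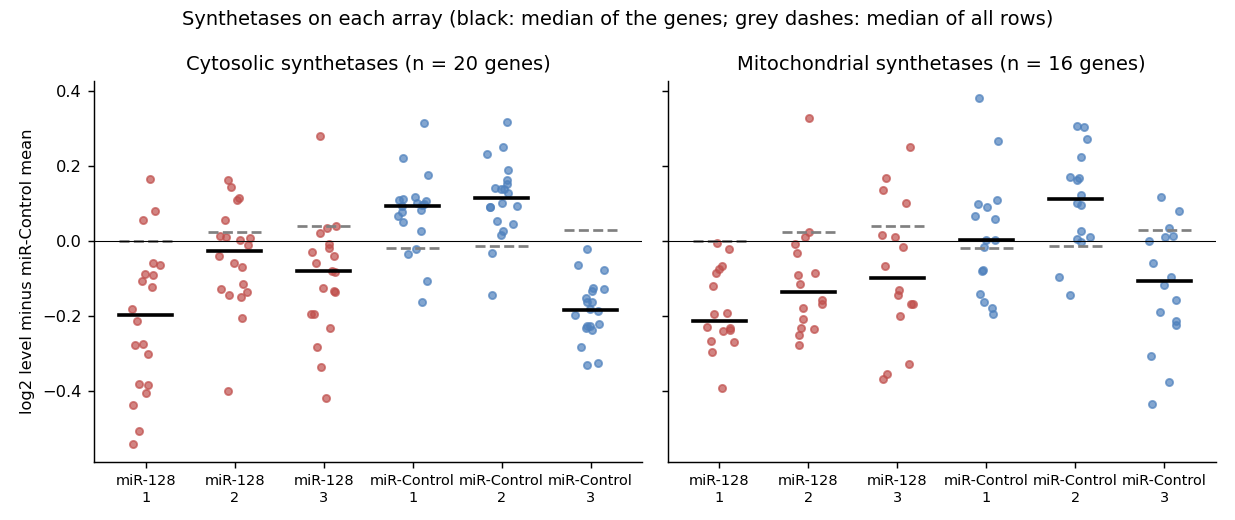
Log2 level minus the miR-Control mean of the same gene (y axis) on each array (x axis), for cytosolic (left, n = 20) and mitochondrial (right, n = 16) genes; points are genes, black lines their median and grey dashes the median of all rows. The miR-Control replicate 3 array has medians of -0.19 and -0.11, among the miR-128 arrays and below the other 2 controls.

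Subsets of the enzymes had median log2 fold changes between -0.19 and -0.08, and differences between subsets were not tested. The 8 enzymes of the multisynthetase complex, Eprs, Iars, Lars, Qars, Mars1, Kars, Rars and Dars, had 7 lower values and a median of -0.13. The 12 genes listed as ATF4-induced had 12 lower and a median of -0.08, and the other 8 cytosolic genes had 5 lower and a median of -0.11. By catalytic fold, the 18 class I genes had 16 lower with a median of -0.09, and the 17 class II genes had 14 lower with a median of -0.13. The 5 cytosolic genes with the promoter match had a median of -0.09, and the 8 with an entry and no match had -0.19. The 6 members with more than 1 distinct row kept 1 sign over their rows.

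Among the 17 genes that assist charging, process transfer RNA or form the mitochondrial amidotransferase, 14 were lower and 3 higher, with a median of -0.12, and 0 passed in limma. Aimp2, a scaffold of the multisynthetase complex, had 8.91, 9.16 and 9.18 in miR-128 cells, against 9.61, 9.63 and 9.24 in miR-Control cells. The groups did not overlap, and the log2 fold change was -0.41 (SE 0.14, adjusted p = 0.581 in limma). The other 2 scaffolds, Aimp1 at 0.13 and Eef1e1 at -0.08, had overlapping groups. Gatc, a subunit of the amidotransferase that completes mitochondrial glutaminyl transfer RNA, had 8.97, 8.98 and 9.21 in miR-128 cells and 9.36, 9.43 and 9.17 in miR-Control cells. Its groups overlapped at miR-128 replicate 3, and the log2 fold change was -0.26 (SE 0.12, adjusted p = 0.711 in limma).

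The next list holds factors of translation elongation, which deliver charged transfer RNA, exchange nucleotides or move the ribosome along, and Eef2k, a kinase that acts on eEF2. Of these 11 genes 8 were lower and 3 higher (Eef2, Eef2k and Guf1), with a median of -0.13, and 0 passed in limma. Eef1d, a subunit of the factor that recharges eEF1A with GTP, had 8.44, 8.91 and 9.23 in miR-128 cells, against 9.97, 9.77 and 9.30 in miR-Control cells. Its groups did not overlap, but each spread widely, and the log2 fold change was -0.82 (SE 0.22, adjusted p = 0.456 in limma). With the median of the rows of each gene Eef1d was at -0.67, and leaving out 1 array gave it -1.01 to -0.61. Tsfm, the mitochondrial exchange factor, had 8.61, 8.65 and 8.79 in miR-128 cells and 8.94, 8.80 and 8.99 in miR-Control cells. Its groups were just apart, with a log2 fold change of -0.23 (SE 0.11, adjusted p = 0.724 in limma).

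The ATF4 response genes outside the synthetases were about evenly divided between lower and higher values. Of 15 measured 7 were lower and 8 higher, with a median of 0.03, and 0 passed in limma. Ddit3, a stress transcription factor, had 8.64, 8.53 and 8.91 in miR-128 cells, against 8.50, 8.28 and 8.16 in miR-Control cells, so that the groups did not overlap. Its log2 fold change was 0.38 (SE 0.14, adjusted p = 0.621 in limma). Chac1, a glutathione-degrading enzyme, had 9.53, 9.40 and 9.92 in miR-128 cells and 9.17, 9.35 and 9.51 in miR-Control cells. Groups overlapped, and the log2 fold change was 0.27 (SE 0.16, adjusted p = 0.803 in limma), and 0.12 without miR-128 replicate 3. The promoter letters TGATGNAA occurred in 4 of the 14 genes of this list with an entry. The difference between this list and the synthetases was not tested.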

How the data were processed

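Log2 expression values per RefSeq transcript were deposited in 1 table of 6 arrays. The authors used the affy package and RMA for these log2 values, as the submitters' processing notes say. Tool versions and the build behind the probe design: not given in the sources used here. RMA tends to shrink fold changes, and no signal over background is known. The number of arrays, 3 per group, limits the precision.

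Rows were matched without version to the RefSeq gene table of GRCm38.p6, from which only names were taken (25343 of 32025 rows named). The members and lists were chosen with earlier results of these data known. Rows were tested with limma 3.58.1 and R 4.3.3 (lmFit, eBayes, unpaired, two-sided) over the whole table at a threshold of 0.05. The procedure was also run on simulated data, in which all arrays were of equal quality. That run does not show how small a change could be found in the real arrays. Values are given array by array for the 6 members of smallest p per compartment and their partners for the same amino acid, 20 in all. The same was done for the 2 genes of smallest p in the charging, elongation and ATF4 response lists. Aimp1, Eef1e1, Eef2, Eef2k, Guf1, Qars, Dars, Sars and the cell type markers were added after their values were seen. These are given without the array values of single genes. The labels state no pairing, so replicate numbers were not taken as pairs. Deviations of same-numbered arrays from their group means had correlations of -0.00278, 0.17 and 0.05. Differently numbered arrays were not set beside them, so these correlations cannot exclude a pairing. Matched promoter stretches of Aars are not reported here.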

Additional observations from a re-analysis of the deposited data

How the results depend on the processing

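No member passed under any alternative: the replicate block, median centring, quantile normalization, array weights, limma-trend, rows above the median level, the median of each gene's rows, or leaving out each array. Over all rows 0 passed in each of them except array weights (24 rows) and rows above the median level (4 rows); the cause was not tested, though the latter tests fewer rows. With the replicate block 0 members and 0 rows passed, and the medians stayed at -0.08 and -0.13. Under median centring the shares were 17 of 20 and 15 of 16 lower, where 51.6% of all rows were lower. Under quantile normalization they were 16 of 20 and 14 of 16, where 49.7% of all rows were lower. Leaving out 1 array gave medians of -0.18 to -0.04 for cytosolic and -0.19 to -0.08 for mitochondrial genes. The weight was lowest for miR-Control replicate 3, at 0.28, and lay between 0.75 and 2.12 on the other arrays. Array weights moved the cytosolic median to -0.17 (19 of 20 lower) and the mitochondrial one to -0.17 (14 of 16 lower). They put 12 of 36 members at an unadjusted p under 0.05 in limma, beside 4577 of all 32025 rows. They turned Farsb to -0.0147 and Vars to -0.0234, and moved 11 of the 20 members given array by array by over 1.5 times, among them Mars2 to -0.16. Leaving out 1 array moved 15 of these 20 by over 1.5 times, and not Farsa, Mars2, Tars, Tars2 or Vars2. It gave Farsb -0.0904 to 0.12, Vars -0.0210 to 0.22, Hars2 -0.24 to 0.0207 and Yars2 -0.26 to 0.0934, so their signs are not settled. No other gene given array by array changed sign. The spread of 3 arrays limits what small shifts can be told from 0.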
